A study of Mus musculus with 8 samples.

Results

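The genes described here encode the machinery that pulls chromosomes apart and cleaves the cell: the spindle, the kinetochore, the Aurora kinases with the chromosomal passenger complex, the spindle checkpoint, the central spindle, condensin, cohesin and the anaphase-promoting complex. They are 50 genes of the 30705 measured, taken from a list of symbols and grouped into 8 sub-complexes. Each gene is represented by the array feature annotated to it alone, and where several were, by the one with the highest mean over the 8 arrays. All 50 were measured, and 47 of them had a mean log2 level of at least 8, as did 6739 of all genes. The genes were chosen by function, with earlier results of these data known.

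RNA of late 2-cell mouse embryos was hybridised to 8 whole-transcript arrays, each holding RNA pooled from 100 embryos of B6C3F1 x CD1 matings, in 4 groups of 2 pools. Non-manipulated embryos stayed in the incubator. A second group received mRNA of Trim21, a ubiquitin ligase that binds antibodies and takes them with their target to the proteasome, by injection into the zygote at the mid-pronuclear stage. The third group, called the full treatment below, received Trim21 mRNA plus an anti-COPS3 antibody, against a subunit of the COP9 signalosome that removes NEDD8 from cullin ubiquitin ligases. The fourth, by its sample titles, received the anti-COPS3 antibody alone; the treatment protocol describes only the other groups, and no control antibody is described. The protocol gives 28 h of culture for all embryos, against 24 h in the age label. The labels record normal formation of 2-cell embryos without the antibody, and stunted formation with many undivided zygotes in both antibody groups. Per the series' design text, zygotes of different groups were treated on different days and both pools of a group on a single day, so treatment day and group cannot be told apart, and p-values measure only the spread between pools of the same day. Because the pools are bulk RNA, fewer embryos or cells in a state and less RNA per embryo cannot be told apart either.

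Chromosome segregation runs in a fixed order. Condensin compacts the chromosomes, kinesin motors build a bipolar spindle, and kinetochores assembled on CENP-A chromatin bind its microtubules while the passenger complex corrects wrong attachments and the checkpoint holds the cell in metaphase. The anaphase-promoting complex then marks securin for destruction, separase cuts the cohesin that holds sister chromatids together, and the central spindle directs cytokinesis. In mouse zygotes the first division relies largely on mRNA stored in the egg, and much of that store is degraded as the embryonic genome is switched on at the 2-cell stage.

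Of the markers used to check the tissue, 9 of 10 embryo and oocyte genes had a mean log2 level of at least 8. None of 11 cumulus and granulosa, 8 sperm or 6 blood genes did, and 1 of 7 oviduct genes did (Epcam, which other epithelia and early embryos express too). Of the markers, 5 of 10 embryo and oocyte genes rose and 1 fell in full treatment minus Trim21 mRNA. The log2 of the summed level of the 7 oviduct genes was 9.02 to 9.32 in full-treatment pools against 10.84 to 10.95 in Trim21 mRNA pools. For the 11 cumulus and granulosa genes it was 9.51 to 11.49 in non-manipulated and 8.95 to 10.85 in antibody-alone pools. It was 9.04 to 9.13 in Trim21 mRNA and 8.84 to 8.87 in full-treatment pools. The part of these markers in the results was not tested. The log2 level of Trim21 mRNA was 6.27 and 5.65 in non-manipulated pools, 9.77 and 10.14 after Trim21 mRNA, 10.40 and 10.30 under the full treatment and, with antibody alone, 6.76 and 6.37, which follows the labels. Cops3 mRNA is no check of the COPS3 protein, which is what the antibody targets. The arrays differed as wholes: the median log2 level over all rows was 4.75 and 4.77 in non-manipulated pools but 5.15 and 5.29 under the full treatment, the SD over rows was 2.71 against 2.38 and 2.27, and 151 and 169 rows shared the highest value of the full-treatment arrays, as 136 did on the first antibody-alone array, against 1 row on each of the other 5 arrays. No member lay at such a ceiling. The part of these array differences in the results below was not tested; counts under other scalings are given beside the results. Between the pools of a group the correlation over genes was 0.9975 for non-manipulated embryos, 0.9964 for Trim21 mRNA, 0.9857 for the full treatment and 0.9558 for antibody alone.

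In the full treatment, most of the division genes were lower than in embryos given Trim21 mRNA only. With limma at an adjusted p under 0.05, 34 of 50 fell, none rose, and the median difference was -1.34 on the log2 scale. Over all genes 14.5% were called lower and 8.72% higher with a median difference of 0.21, and over genes with a mean level of at least 8, which most members are, 44.4% were called lower with a median of -0.74. In 46 members both full-treatment pools lay below both Trim21 mRNA pools, as they did in 26.4% of all genes and in 60.0% of genes at a mean level of at least 8. The largest falls were those of Kif11, Prc1, Kif20a and Smc3, each by more than 3 on the log2 scale, and the medians of the 8 sub-complexes ran from -2.44 for the spindle motors and -2.37 for the central spindle to -0.68 for the checkpoint.

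**Figure D1:**
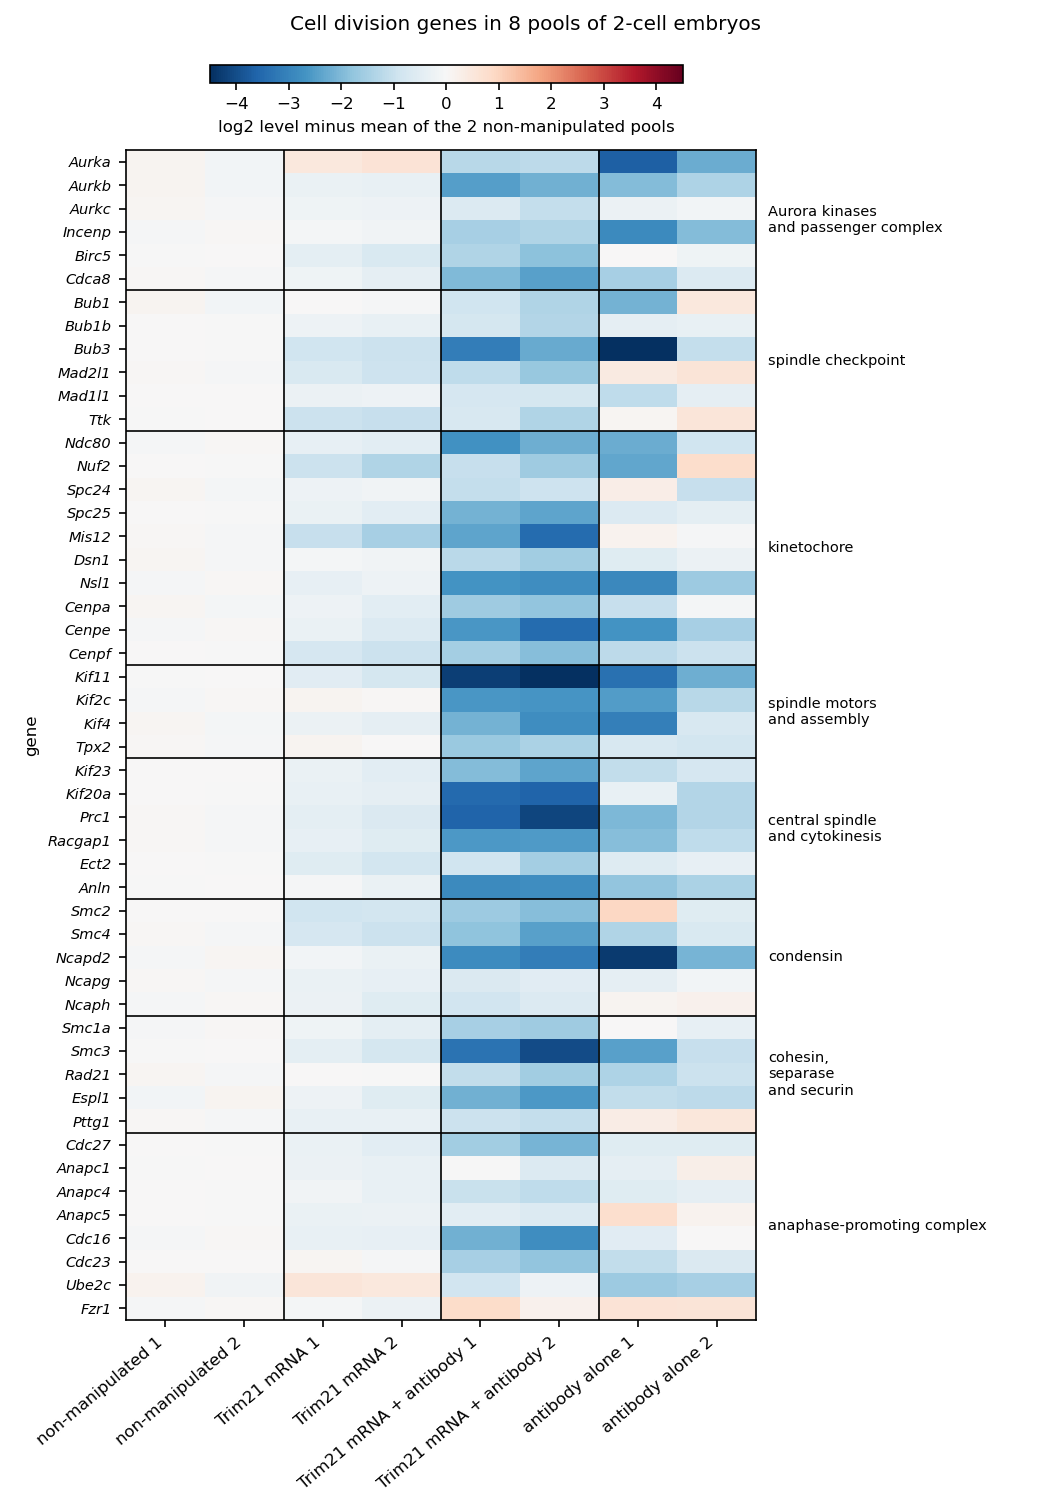
Log2 level of each of the 50 genes in each of the 8 pools, minus the mean of the 2 non-manipulated pools of that gene; blue is lower and red is higher, rows are ordered by sub-complex and columns by group. The full-treatment columns are blue in nearly every row, Fzr1 being red, and the 2 antibody-alone columns differ from each other in rows such as Bub3 and Nuf2.

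Many cell division genes carry the same letters in their promoters, and this was looked at as a feature that the choice of members did not use. The letters were the cell cycle genes homology region, TTTGAA or TTTAAA, and the CCAAT box, on either strand; a CCAAT match and a homology match can share no more than 1 base. In the RefSeq promoter windows of GRCm38.p6, which run from 250 bases before to 50 after the start, 41 of the 50 genes were listed (not Aurkb, Incenp, Spc24, Nsl1, Tpx2, Kif20a, Smc4, Rad21 or Cdc23), as were 27025 genes in all. TTTGAA was found in 22 of these 41 members, or 53.7%, against 20.2% of all listed genes, and TTTAAA in 17.1% against 14.9%. CCAAT was found in 65.9% against 41.1%. A homology region and a CCAAT box stood in the same window in 20 of 41 members, or 48.8%, against 12.2% of all. Of the listed members that fell under the full treatment against Trim21 mRNA, 14 of 26 held both, and of those not called, 6 of 15 did. These are matches of letters, not measured sites, and the 300-base window can miss others.

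The 120 bases just before the annotated start of 5 members show the range, read 5′ to 3′ on the strand of the gene, with matches in capitals (CCAAT on the other strand reads ATTGG, and TTTGAA reads TTCAAA). They lie at chr19:37376262-37376381 for Kif11, chr15:102296173-102296292 for Espl1, chr2:164769809-164769928 for Ube2c, chr5:45669805-45669924 for Ncapg and chr19:53600276-53600395 for Smc3, all on the plus strand. In these bases Kif11 and Espl1 hold both kinds of match and fell, Ube2c has 2 CCAAT boxes and a homology region and fell on the deposited scale but not after quantile normalization, Ncapg has a homology region here, with its CCAAT box elsewhere in the window, and was not called, and Smc3 has no match in these bases and fell by 3.05.
Kif11: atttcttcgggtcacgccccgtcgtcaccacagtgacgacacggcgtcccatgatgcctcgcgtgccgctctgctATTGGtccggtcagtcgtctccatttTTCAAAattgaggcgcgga
Espl1: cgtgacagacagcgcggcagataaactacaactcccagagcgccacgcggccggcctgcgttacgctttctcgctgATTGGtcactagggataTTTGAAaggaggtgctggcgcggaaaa
Ube2c: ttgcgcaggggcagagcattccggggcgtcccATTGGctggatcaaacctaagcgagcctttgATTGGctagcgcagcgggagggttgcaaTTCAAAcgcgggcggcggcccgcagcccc
Ncapg: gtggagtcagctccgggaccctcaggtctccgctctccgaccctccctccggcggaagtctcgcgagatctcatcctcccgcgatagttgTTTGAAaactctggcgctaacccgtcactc
Smc3: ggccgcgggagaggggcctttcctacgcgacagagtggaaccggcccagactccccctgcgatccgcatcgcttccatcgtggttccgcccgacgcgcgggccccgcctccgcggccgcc
In Kif11 the first base of the CCAAT match lies 45 bases and that of the homology region 19 bases before the start, in Espl1 44 and 27, and in Ube2c 88 and 57 for CCAAT and 29 for the homology region.

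Motors and assembly factors of the spindle showed the largest median difference of the 8 groups, and 3 of 4 fell under the full treatment against Trim21 mRNA. Kif11, the kinesin that slides spindle poles apart, had log2 levels of 11.80 and 11.83 in non-manipulated pools, 11.30 and 11.03 with Trim21 mRNA, 7.60 and 7.31 under the full treatment and, with antibody alone, 8.47 and 9.62. Its pools without antibody were all above 11 and its pools with antibody all below 10. The difference of full treatment minus Trim21 mRNA was -3.71 ± 0.36 (SE, here and below from the shared spread of the fit, 2 pools a group), a 13.1-fold lower level with an adjusted p of 0.00052. Kif2c, a kinesin that depolymerises microtubule ends, stood at 10.98, 11.06, 11.16, 11.09 in the pools without antibody and at 8.39 and 8.36 under the full treatment, against 8.5 and 9.77 with antibody alone. Its difference was -2.75 ± 0.37 (adjusted p 0.0023). Tpx2, which activates Aurora A and helps microtubules form around chromosomes, had levels of 13.60 and 13.47 with Trim21 mRNA against 11.78 and 12.02 under the full treatment. Non-manipulated pools had 13.51 and 13.41 and antibody-alone pools 12.74 and 12.65, so that both antibody groups lay below the others without overlap. Its fall of 1.64 was called on the deposited scale (adjusted p 0.00054) but not after quantile normalization, where the difference was -0.67 with an adjusted p of 0.07. Kif4, a kinesin of chromosome arms and the midzone, differed by -2.12 ± 0.68 and was not called (adjusted p 0.065).

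The central spindle and cytokinesis genes had 5 of 6 members lower, and all 5 stayed called under quantile normalization, cyclic loess and median centring. Prc1, which bundles antiparallel microtubules of the midzone, was at 12.90 and 12.76 in non-manipulated pools, 12.38 and 12.17 with Trim21 mRNA, 9.22 and 8.70 under the full treatment, while the antibody-alone pools had 10.80 and 11.52. The 4 groups did not overlap, and full treatment minus Trim21 mRNA was -3.32 ± 0.28, or 9.95-fold lower (adjusted p 0.00032). Kif20a, the kinesin that brings the passenger complex to the midzone, fell from 12.52 and 12.45 with Trim21 mRNA to 9.36 and 9.26 under the full treatment. Its levels were 12.88 and 12.82 in non-manipulated pools and 12.51 and 11.52 with antibody alone, so the first antibody-alone pool lay within the range of the Trim21 mRNA pools. The difference with Trim21 mRNA present was -3.18 ± 0.30, or 9.03-fold (adjusted p 0.0005). Anln, the anillin scaffold of the contractile ring, fell from 11.55 and 11.29 to 8.75 and 8.82, with 11.59 and 11.61 in non-manipulated and 9.84 and 10.19 in antibody-alone pools. That fall of 2.64 ± 0.18 had the smallest adjusted p of the 50 (0.00014). Racgap1 and Kif23, the 2 parts of centralspindlin, fell by 2.10 and 1.76. Ect2, the exchange factor that activates RhoA at the midzone, differed by -0.53 ± 0.24 and was not called (adjusted p 0.15).

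**Figure D2:**
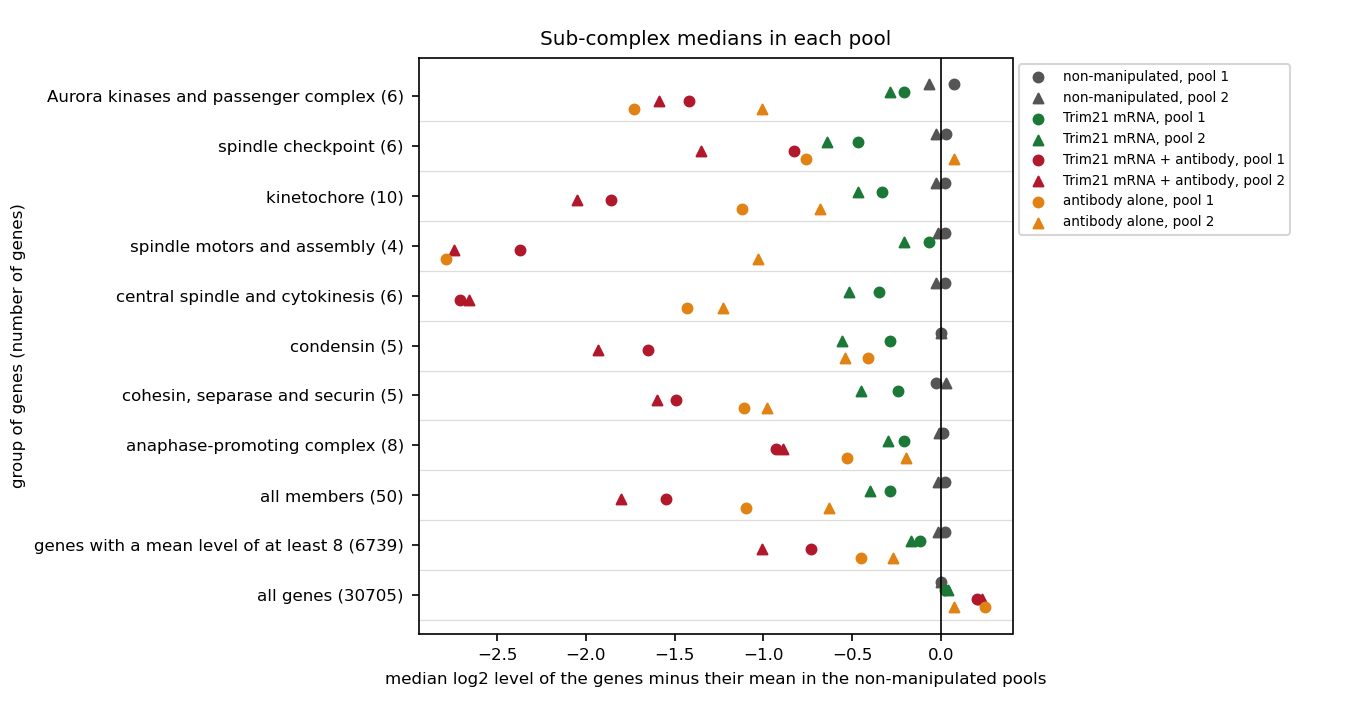
Median over the genes of each sub-complex of the log2 level minus the gene's mean in non-manipulated pools, for each pool (colour for group, circle for pool 1, triangle for pool 2), with the same for all 50 members, for genes with a mean level of at least 8 and for all genes. The full-treatment medians of the spindle motors are -2.37 and -2.74 and those of the central spindle -2.71 and -2.66, against -0.73 and -1.01 for genes with a mean level of at least 8; the antibody-alone pools of the spindle motors lie at -2.79 and -1.03.

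Kinetochore genes were lower in 8 of 10 cases, with a median difference of -1.5, and 5 of the 8 were called in all 3 other scalings. Cenpe, the kinesin that carries chromosomes to the spindle equator, had levels of 11.94 and 12.04 in non-manipulated pools and 11.68 and 11.39 with Trim21 mRNA. In the full treatment it was at 9.36 and 8.51 and with antibody alone at 9.29 and 10.50, so the groups with antibody overlapped each other and neither overlapped a group without. The difference of full treatment minus Trim21 mRNA was -2.60 ± 0.43 (6.06-fold, adjusted p 0.0056). Nsl1 of the MIS12 complex, which joins centromere chromatin to the outer kinetochore, fell from 7.67 and 7.81 to 5.33 and 5.22. It was at 7.97 and 8.08 in non-manipulated pools and at 5.13 and 6.40 with antibody alone. The difference was -2.46 ± 0.37 on the deposited scale and, unlike that of most members, no smaller after quantile normalization (-2.58). Its full-treatment levels lay near the median of all rows on those arrays, 5.15 and 5.29. The part of this low level in the size of the difference was not tested. Its partners Dsn1 and Mis12 fell by 1.26 and 1.65. Ndc80, the microtubule-binding subunit that names its complex, fell from 9.82 and 9.74 to 7.48 and 8.02, with 10.13 and 10.27 in non-manipulated and 7.95 and 9.29 in antibody-alone pools. That difference of -2.03 ± 0.42 had an adjusted p of 0.014.

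Of the 4 subunits of the NDC80 complex, Ndc80 and Spc25 were called lower. Spc25 was at 11.04 and 10.99 in non-manipulated pools, 10.73 and 10.53 with Trim21 mRNA, 8.88 and 8.64 under the full treatment and, with antibody alone, 10.39 and 10.57. Only under the full treatment did both Spc25 pools fall below 10, and the difference from Trim21 mRNA was -1.87 ± 0.17 (adjusted p 0.00038). Nuf2 and Spc24 were not called, at -0.16 ± 0.88 and -0.80 ± 0.39. The large error of Nuf2 comes with antibody-alone pools at 7.32 and 10.44. Cenpa, the histone H3 variant that marks the centromere, fell by 1.34 and Cenpf, a protein of the kinetochore corona, by 0.87, the latter not called after quantile normalization, as Cenpa and Mis12 were not.

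Among the Aurora kinases and the passenger complex 5 of 6 fell, and Aurkb and Cdca8 stayed called in all 3 scalings. Aurkb, the kinase of the passenger complex, was at 9.87 and 9.60 in non-manipulated pools, 9.42 and 9.38 with Trim21 mRNA, 7.25 and 7.57 under the full treatment and, with antibody alone, 7.78 and 8.33. Pools with and without antibody did not overlap, and the difference of full treatment minus Trim21 mRNA was -1.99 ± 0.23 (3.97-fold, adjusted p 0.0012). Cdca8, which encodes borealin, fell from 12.32 and 12.14 to 10.53 and 10.08, with non-manipulated pools at 12.59 and 12.47 and antibody-alone pools at 11.03 and 11.92. Aurka, the kinase of spindle poles, was instead lowest with antibody alone, at 9.42 and 10.87. It stood at 13.24 and 12.97 in non-manipulated pools, 13.59 and 13.74 with Trim21 mRNA and 11.85 and 11.92 under the full treatment. Its fall of 1.78 ± 0.42 against Trim21 mRNA had an adjusted p of 0.025, which was 0.23 after quantile normalization. Incenp, the scaffold of the complex, fell by 1.30 and Birc5 (survivin) by 1.01, while Aurkc, the Aurora kinase of germ cells, differed by -0.61 and was not called (adjusted p 0.058).

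The cohesin ring with its release factors was the one group in which all 5 members fell on the deposited scale, though Smc3 and Espl1 alone stayed called in all 3 scalings. Smc3 of the ring was at 11.46 and 11.52 in non-manipulated pools, 11.04 and 10.69 with Trim21 mRNA, 8.16 and 7.47 under the full treatment, and antibody-alone pools had 9.05 and 10.46. The difference of full treatment minus Trim21 mRNA was -3.05 ± 0.46, an 8.28-fold lower level (adjusted p 0.0036). Its partner Smc1a fell by 1.22. Espl1, the separase that cuts cohesin, fell from 11.87 and 11.56 to 9.95 and 9.52, with 12.00 and 12.21 in non-manipulated and 11.00 and 10.92 in antibody-alone pools. The groups with antibody lay below the others without overlap, and the difference was -1.98 ± 0.21 (adjusted p 0.00073). Rad21, the cohesin subunit that separase cuts, was at 14.38, 14.23, 14.30 and 14.28 in the pools without antibody. It was at 13.19 and 12.73 under the full treatment and, with antibody alone, 12.90 and 13.32, and its fall of 1.33 shrank to 0.24 after quantile normalization (adjusted p 0.31). Pttg1, securin, which holds separase inactive, fell from 13.04 and 13.06 to 12.43 and 12.33. Its antibody-alone pools, 13.72 and 13.90, lay above the non-manipulated ones, 13.43 and 13.35, and its difference of full treatment minus Trim21 mRNA, -0.67 ± 0.15 (adjusted p 0.019), turned to 0.32 after quantile normalization and 0.41 after cyclic loess.

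Condensin genes were lower in 2 of 5 cases. Ncapd2, a subunit of condensin I, fell from 10.52 and 10.35 with Trim21 mRNA to 7.84 and 7.54 under the full treatment, with non-manipulated pools at 10.59 and 10.74. Its antibody-alone pools were far apart, at 6.34 and 8.58, and the difference was -2.74 ± 0.63 (6.70-fold, adjusted p 0.021). Smc4, of the core that both condensins share, was at 12.55 and 12.48, at 11.77 and 11.55, at 10.70 and 10.06 and at 11.18 and 11.81 in the pools of the 4 groups (non-manipulated, then Trim21 mRNA, full treatment, antibody alone). It fell by 1.28 ± 0.28 on the deposited scale, with an adjusted p of 0.21 after quantile normalization. Smc2, Ncaph and Ncapg, not called, differed by -0.93, -0.31 and -0.26.

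Of the anaphase-promoting complex with its E2 enzyme and co-activator, 5 of 8 were called lower. Among these 8, the 3 members with the largest falls, Cdc16, Cdc23 and Cdc27, encode scaffold subunits with tetratricopeptide repeats. Cdc16 was at 9.02 and 9.16 in non-manipulated pools, 8.77 and 8.72 with Trim21 mRNA, 6.93 and 6.31 under the full treatment and, with antibody alone, 8.59 and 9.10. Its full-treatment pools stood below all others, which lay within 8.59 to 9.16, and the difference from Trim21 mRNA was -2.12 ± 0.26 (4.36-fold, adjusted p 0.0015). Cdc23 fell from 9.15 and 8.98 to 7.55 and 7.29, with 9.05 in both non-manipulated pools and 7.95 and 8.40 with antibody alone. Cdc27 fell from 13.78 and 13.60 to 12.51 and 11.98, with 14.10 and 14.05 in non-manipulated and 13.51 and 13.53 in antibody-alone pools. The difference of Cdc27 was -1.44 ± 0.20, but -0.43 after quantile normalization (adjusted p 0.096).

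Among the platform subunits of the complex Anapc4 fell by 0.84, while Anapc1 and Anapc5 differed by -0.02 and -0.27. The median of the 8, -0.94 on the deposited scale, was 0.05 after quantile normalization and 0.00 after cyclic loess, so its direction rests on the scaling. Ube2c, the enzyme that supplies ubiquitin to the complex, was called lower on the deposited scale by 1.05 ± 0.24, but turned to 0.16 after quantile normalization. Fzr1, the co-activator CDH1 of late mitosis and G1, was the 1 member with a difference above 0. Its levels were 8.30 and 8.40 in non-manipulated pools, 8.26 and 8.07 with Trim21 mRNA, 9.17 and 8.55 under the full treatment and, with antibody alone, 8.95 and 8.93 (values chosen for mention after they were seen). The 4 pools with antibody lay above the 4 without, but 0.69 ± 0.22 was not called on the deposited scale (adjusted p 0.066), and was 1.33 with an adjusted p of 0.004 after quantile normalization.

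Of the spindle checkpoint genes 1 of 6 was called. Bub1b, which encodes the BUBR1 protein of the mitotic checkpoint complex, was at 9.34 and 9.29 in non-manipulated pools, 9.08 and 8.96 with Trim21 mRNA, 8.54 and 8.00 under the full treatment and, with antibody alone, 8.92 and 8.99. Its fall of 0.75 ± 0.20 (adjusted p 0.039) was not called after quantile normalization (-0.13, adjusted p 0.65). Bub3, the WD-repeat partner of BUB1 and BUBR1, differed by -1.76 ± 0.97, Bub1 by -1.10 ± 0.73 and Mad1l1 by -0.52 ± 0.24, none of them called. Mad2l1, the MAD2 protein that inhibits CDC20, differed by -0.61 ± 0.22 and the checkpoint kinase Ttk by -0.03 ± 0.25. For Ttk and Mad2l1 the sign turned, to 0.80 and 0.48 after quantile normalization, and Ttk was then called higher (adjusted p 0.023).

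**Figure D3:**
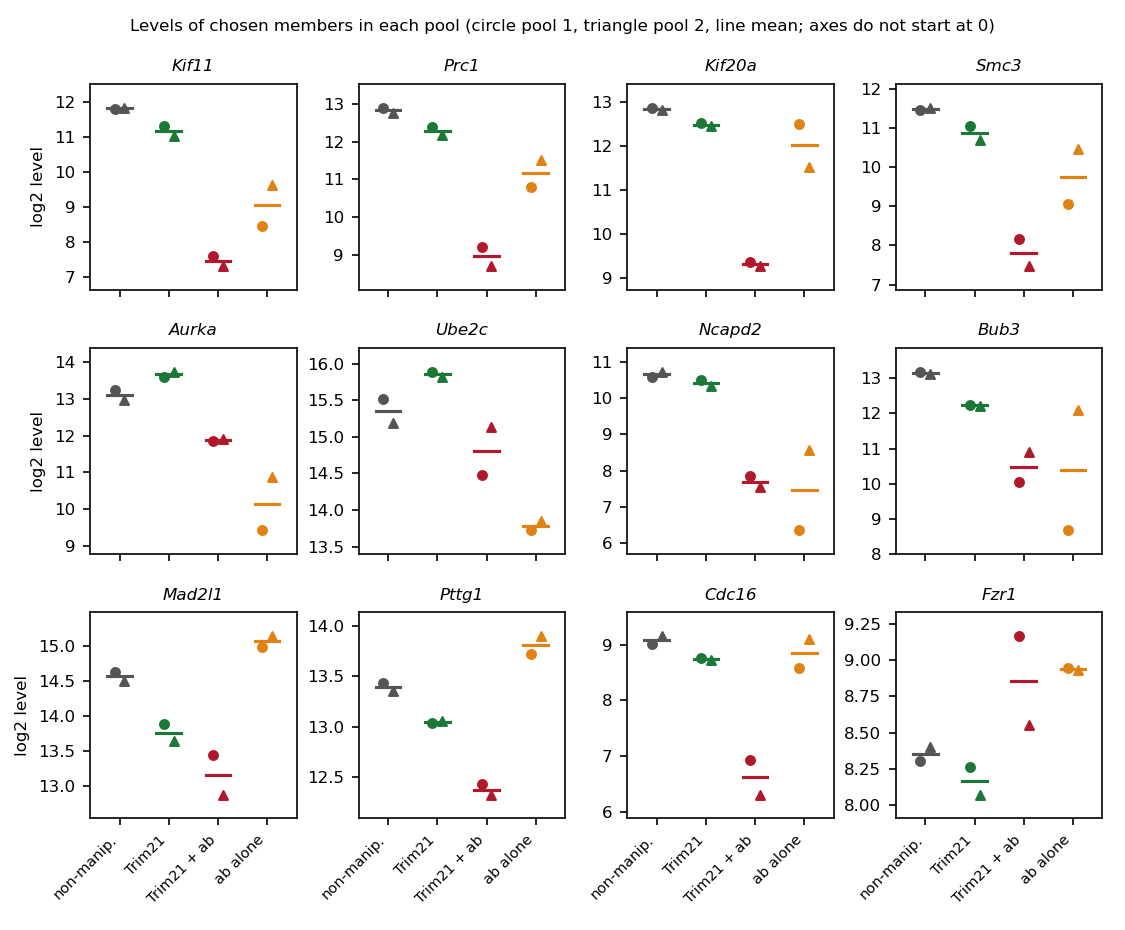
Log2 levels of 12 members, chosen to show the different patterns, in the 2 pools of each group (circle pool 1, triangle pool 2, line the group mean; each panel has its own axis, which does not start at 0). Kif11, Prc1, Smc3 and Cdc16 are lowest under the full treatment, Aurka and Ube2c with antibody alone, and Bub3 and Ncapd2 show antibody-alone pools far apart.

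The scaling of the arrays bears on how many members were called. For full treatment minus Trim21 mRNA, 21 members were called after quantile normalization (19 lower and 2 higher, Ttk and Fzr1), 23 after cyclic loess (19 lower and 4 higher, Ttk, Mad2l1, Aurkc and Fzr1) and 35 after median centring (all lower), and the members' median was -0.65, -0.57 and -1.54. Of all genes 12.1% were called lower and 11.4% higher after quantile normalization and 11.9% and 10.5% after cyclic loess. Quantile normalization and cyclic loess moved the median difference of all genes from 0.21 to 0.02 and 0.01. Of the 34 called members, 19 were called in all 3 scalings, and 17 of these also whichever array was left out: Anln, Aurkb, Cdc16, Cdc23, Cdca8, Cenpe, Dsn1, Espl1, Kif11, Kif20a, Kif23, Kif2c, Nsl1, Prc1, Racgap1, Smc3 and Spc25. The members' median was -1.29 without Trim21 mRNA pool 1 and -1.42 without pool 2. Every sub-complex median but that of the anaphase-promoting complex kept its sign under the 3 scalings, from -1.68 after quantile normalization for the spindle motors to -0.24 for the checkpoint.

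**Figure D4:**
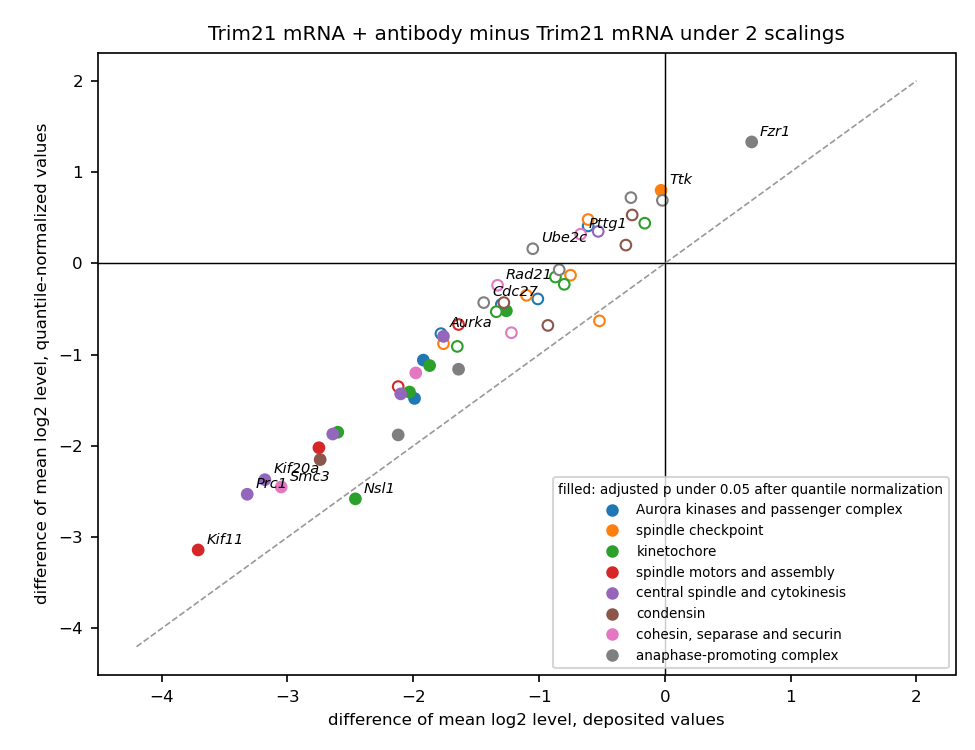
Difference of full treatment minus Trim21 mRNA for the 50 members on the deposited log2 scale (horizontal) and after quantile normalization (vertical), coloured by sub-complex, filled where the adjusted p after quantile normalization is under 0.05; the dashed line marks equal values. Nearly all members lie above the line, Kif11 moving from -3.71 to -3.14 and Ube2c from -1.05 to 0.16, and Nsl1 lies just below it.

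Antibody alone against non-manipulated embryos asks what changed without injected Trim21 mRNA, although these groups also differ in having been injected. Here 18 of 50 members were called lower, none higher, and the median difference was -0.81. Over all genes 7.29% were called lower and 2.76% higher, with a median of 0.18, and over genes with a mean level of at least 8, 21.4% were called lower with a median of -0.35. The largest called falls were those of Ncapd2 (-3.20 ± 0.63), Aurka (-2.96 ± 0.42), Kif11 (-2.77 ± 0.36), Incenp (-2.41 ± 0.29) and Nsl1 (-2.26 ± 0.37), and 13 of the 18 were called in all 3 other scalings. The spindle motors had 3 of 4 lower and a median of -1.88, the central spindle 4 of 6 and -1.23, the Aurora and passenger genes 3 of 6 and -1.37, and the kinetochore 3 of 10 and -0.67. Cohesin, separase and securin had 2 of 5 (Rad21 and Espl1), the anaphase-promoting complex 2 of 8 (Cdc23 and Ube2c), condensin 1 of 5 and the checkpoint 0 of 6 by limma, where Bub3 and Mad1l1 had an unadjusted p under 0.05. Condensin's median of -0.26 turned to 0.02 after quantile normalization and 0.03 after cyclic loess.

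These 18 calls rest on few arrays. None was called by limma when only the 4 arrays of these groups were fitted, with 27 members at an unadjusted p under 0.05. In that fit 0 of all 30705 genes were called, so the loss is not particular to the members. Without non-manipulated pool 1 or pool 2 the members' median was -0.76 or -0.84, and that of all genes 0.16 or 0.18. The members' median was -0.63 without antibody-alone pool 1 and -1.10 without pool 2, where that of all genes was 0.07 and 0.25. Between the antibody-alone pools 14 members differed over 2-fold, against 1 under the full treatment and 0 in the other groups. Between the same antibody-alone pools 15.0% of all genes did, and 25.6% of the genes with a mean level of at least 8. Bub3 was the widest, at 8.67 and 12.10, and pool 1 lay below pool 2 in 40 of 50 members, which was not counted for all genes. Relative to non-manipulated embryos, pools 1 and 2 had medians of -1.10 and -0.63 over the members. Over genes with a mean level of at least 8 these were -0.45 and -0.27.

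**Figure D5:**
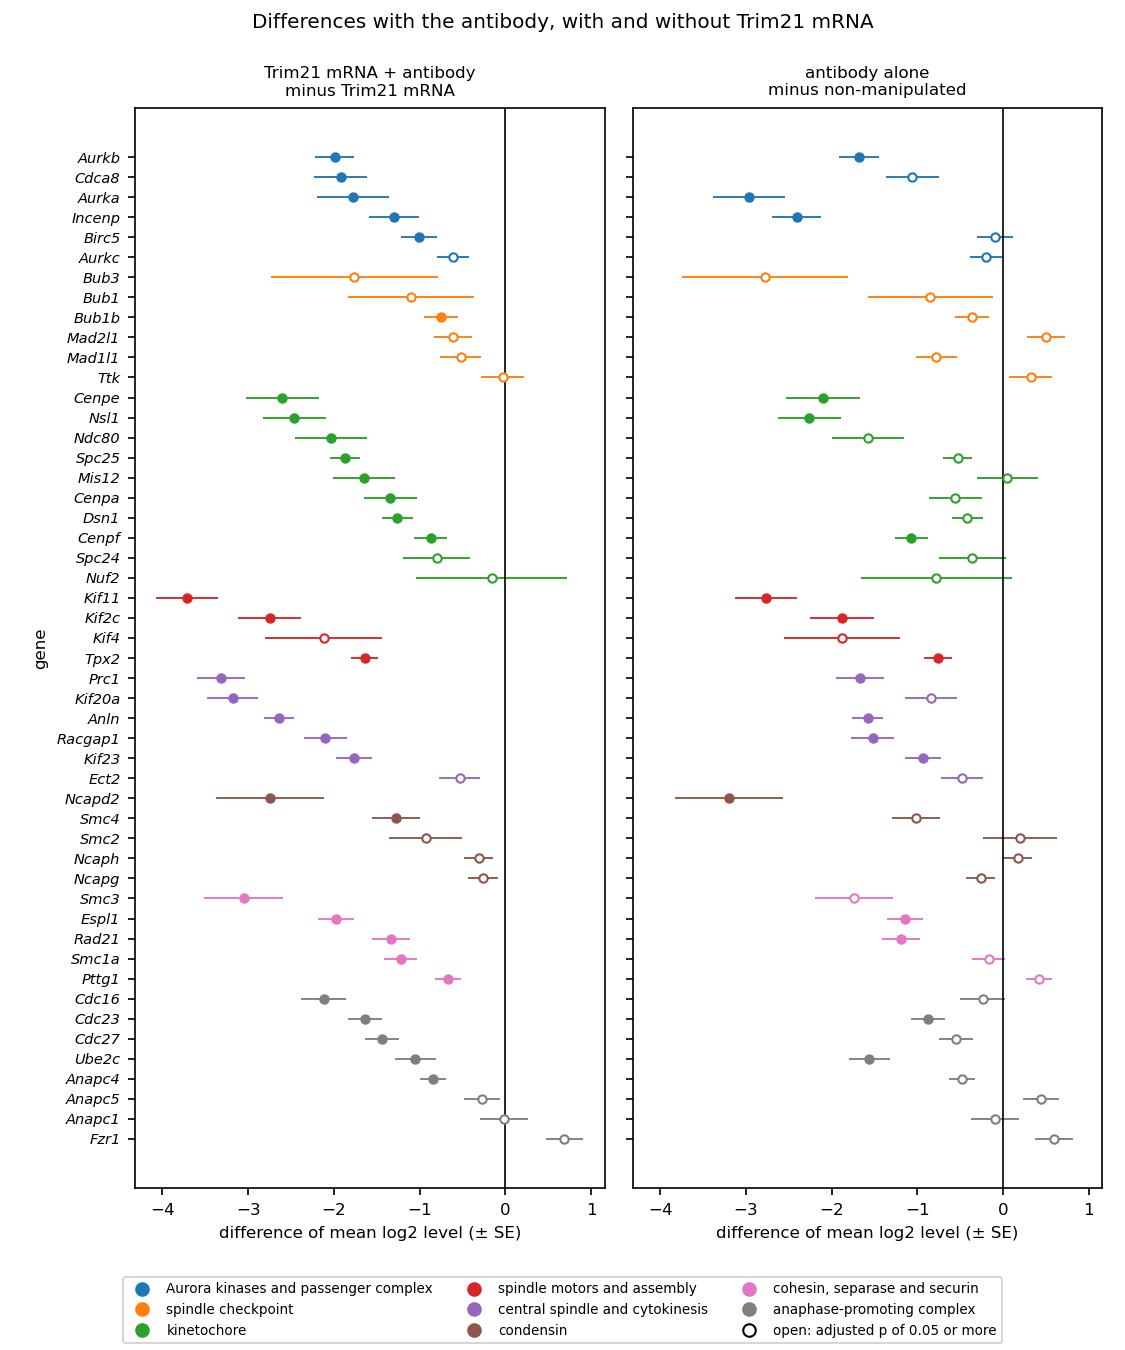
Difference of mean log2 level for each member with its SE, for full treatment minus Trim21 mRNA (left) and antibody alone minus non-manipulated (right), coloured by sub-complex; open circles have an adjusted p of 0.05 or more. All but Fzr1 lie below 0 on the left; on the right 42 lie below 0, and Cdc16, Pttg1, Mis12 and Birc5 lie near or above 0.

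These 2 comparisons share no array, but both use the spread that the fit takes from all 8 arrays, so their calls are not independent. All 18 members called lower with antibody alone were among the 34 called lower under the full treatment against Trim21 mRNA. The share of all genes called lower in both was not counted. The other 16 were Birc5, Cdca8, Bub1b, Ndc80, Spc25, Mis12, Dsn1, Cenpa, Kif20a, Smc4, Smc1a, Smc3, Pttg1, Cdc27, Anapc4 and Cdc16. A call in 1 comparison and not in the other does not show a difference, which the interaction tests. There 4 members were called, all more negative with Trim21 mRNA present: Kif20a by 2.34 ± 0.43, Cdc16 by 1.88 ± 0.37, Spc25 by 1.34 ± 0.24 and Pttg1 by 1.09 ± 0.21, with adjusted p of 0.034, 0.04, 0.031 and 0.039. Over all genes 3.46% were called in that direction, and 14.1% of genes with a mean level of at least 8. None of the 4 was called in all 3 other scalings. None of the 4 calls held whichever array was left out. The members' median in the interaction was -0.49. With 1 array left out it ranged from -0.83, without antibody-alone pool 1, to -0.33, without antibody-alone pool 2. The median of all genes was 0.08 and -0.09 in those fits.

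Trim21 mRNA against non-manipulated embryos called none of the 50 members, with limma, where 1 gene of all (0.00326%), Trim21 itself, was called. At an unadjusted p under 0.05 there were 7 members: Birc5, Mad2l1, Ttk, Mis12, Cenpf, Ect2 and Smc4. Their differences lay between -0.57 and -1.27, none past the adjustment. The members' median was -0.34, and in 43 of 50 both Trim21 mRNA pools lay below both non-manipulated pools, as in 26.9% of all genes and 52.9% of genes with a mean level of at least 8. When only these 4 arrays were fitted, 12 members were called lower, and with a spread for each group 16 were called, 15 of them lower. Of all genes 5.34% were called lower and 2.87% higher in the first of these fits and 7.27% and 4.9% in the second. These fits use the spread of the groups' own pools, which lay closer together than those of the antibody groups.

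Full treatment against antibody alone compares groups that both received the antibody. The median was -0.88, with 26 members called lower and 2 called higher, against 10.5% lower and 4.37% higher over all genes and 35.5% and 6.83% over genes with a mean level of at least 8. The lowest differences were those of Mis12 (-2.97 ± 0.36), Kif20a (-2.70 ± 0.30), Cdc16 (-2.22 ± 0.26) and Prc1 (-2.20 ± 0.28). Mis12 was at 9.51 and 8.40 under the full treatment, and at 12.04 and 11.81 with antibody alone, close to the 11.93 and 11.82 of non-manipulated pools, while Trim21 mRNA pools had 10.84 and 10.37. Aurka (1.74 ± 0.42) and Ube2c (1.02 ± 0.24) were the 2 called higher; Ube2c had 14.48 and 15.13 under the full treatment and, with antibody alone, 13.72 and 13.85, beside 15.51 and 15.19 in non-manipulated and 15.89 and 15.82 in Trim21 mRNA pools. Ube2c was called higher in all 3 scalings and Aurka in 2 of 3, with 0.068 after median centring. Only 10 of the 28 calls held in all scalings and without any 1 array: Anln, Birc5, Cdc16, Kif20a, Mad2l1, Mis12, Prc1, Pttg1, Smc1a and Spc25. The members' median was -1.27 without antibody-alone pool 1 and -0.65 without pool 2, where that of all genes was 0.13 and -0.03.

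Against non-manipulated embryos the full treatment had 41 of 50 members lower and none higher, with a median of -1.66; of all genes 16.6% were called lower, and 48.8% of those with a mean level of at least 8. The members not called were Aurka, Bub1, Bub3, Nuf2, Spc24, Anapc1, Anapc5, Ube2c and Fzr1. After quantile normalization 26 were called and after cyclic loess 27, with 1 of them higher each time. The largest falls were again those of Kif11 (-4.36 ± 0.36), Prc1 (-3.87 ± 0.28), Smc3 (-3.68 ± 0.46) and Kif20a (-3.54 ± 0.30).

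Ordered by group mean, the full treatment was lowest in 43 members, antibody alone in 6 and Trim21 mRNA in 1, while non-manipulated embryos were highest in 37, antibody alone in 8 and Trim21 mRNA in 5. Such orders were not counted for other genes. Genes with a mean level of at least 8 also had a median of -0.87 for full treatment minus non-manipulated. In 33 members both full-treatment pools lay below the other 6 pools, as they did in 14.2% of all genes and 41.0% of genes with a mean level of at least 8. Both antibody-alone pools lay below the other 6 in 3 members, Aurka, Incenp and Ube2c, and above them in 5, Mad2l1, Ttk, Ncaph, Pttg1 and Anapc5. Of all genes 4.13% lay below and 7.59% above in this way, and of genes with a mean level of at least 8, 6.9% and 12.5%, so neither count of members stands far from the background. Mad2l1 was at 14.99 and 15.15 with antibody alone, against 14.63 and 14.51, 13.89 and 13.64, and 13.44 and 12.88 in non-manipulated, Trim21 mRNA and full-treatment pools, and was not called against non-manipulated embryos (0.50 ± 0.22, adjusted p 0.2). Trim21 mRNA pools were highest without overlap for 3 members, Aurka, Kif2c and Ube2c, as for 5.77% of all genes and 14.8% of genes with a mean level of at least 8. Neighbouring groups in these orders were not tested beyond the comparisons above.

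Other genes of the same machines were listed beside the 50, of which 89 of 94 were measured and 65 had a mean level of at least 8. In full treatment minus Trim21 mRNA 39 (43.8%) were called lower and 3 higher, with a median of -0.77. That share lies close to the 44.4% of genes with a mean level of at least 8 and above the 14.5% of all genes. The smallest p belonged to Cdc20, the mitotic co-activator of the anaphase-promoting complex, and Kif22, a kinesin of chromosome arms. Cdc20 was at 15.11 and 14.99 in non-manipulated pools, 14.93 and 14.86 with Trim21 mRNA, 10.67 and 10.38 under the full treatment and, with antibody alone, 12.56 and 12.59. It fell by 4.37 ± 0.16, or 20.7-fold (adjusted p 6.5e-05), where its fellow co-activator Fzr1 was not lower. Kif22 fell by 4.29 ± 0.18. Plk4, the kinase that starts centriole duplication, was at 11.95, 11.86, 11.61 and 11.41 in the pools without antibody and at 13.89, 13.26, 14.28 and 13.30 in those with it, and rose by 2.06 ± 0.35 (adjusted p 0.006). Cenpn, which binds CENP-A nucleosomes, rose by 1.61 ± 0.23 (adjusted p 0.0027).

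By group, other spindle genes had 13 of 22 lower and a median of -1.26, other kinetochore genes 13 of 23 and -0.93, and other checkpoint genes 4 of 7 and -0.66. Meiotic cohesin subunits and cohesin regulators had 4 of 19 lower and a median of -0.12, other anaphase-promoting genes 3 of 11 and -0.41, and condensin II 1 of 3 and -0.77. The 4 other cytokinesis genes lay the other way, with a median of 0.73 and 3 of 4 above 0: Cit, citron kinase, rose by 0.68 ± 0.19, Rhoa fell by 1.00 ± 0.24, and Cep55 and Kif14 were not called, at 0.78 and 0.80. With antibody alone against non-manipulated embryos 23 of the 89 (25.8%) were lower, against 7.29% of all genes and 21.4% of those with a mean level of at least 8, and 2 higher, Plk4 (1.88 ± 0.35) and Zwint (0.90 ± 0.16), with a median of -0.57. In the interaction 9 (10.1%) were lower, against 3.46% and 14.1%, and 1, the cohesin regulator Cdca5, higher (1.86 ± 0.32).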

How the data were processed

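The deposited values are log2 levels per transcript cluster on an Affymetrix whole-transcript array; RNA was labelled with a GeneChip WT Pico kit per the labels' protocols, and Affymetrix Expression Console was used, per the submitters' processing notes. The sources used here do not give the summarisation method, normalization or genome build. The deposited column of non-manipulated pool 1 held 1 value over 100, which is no log2 level, and its row was left out. Of 65956 rows, 65955 were used: 31262 named 1 gene, 1487 several and 33206 none, by the array annotation with 1780 symbols updated through RefSeq. Rows of several genes or none were left out, and 442 genes had several rows, which left 30705 genes.

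A fit of 4 group means to all 8 arrays was made with limma 3.58.1 in R 4.3.3 (lmFit, eBayes, two-sided; 4 residual and 6.83 total degrees of freedom), without further normalization or a filter, and was tested on simulated data. P-values were adjusted by Benjamini-Hochberg over all genes of each comparison and called under 0.05. The interaction is (full treatment minus Trim21 mRNA) minus (antibody alone minus non-manipulated). Precision is limited by the number of arrays. The model held no block for the replicate number: same-numbered arrays of different groups deviated from their group means with correlations of -0.191 to 0.143.

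Pool values are given for up to 3 called members of each sub-complex with the largest difference of full treatment minus Trim21 mRNA, for members called higher there and for those called in the interaction; of other genes of the machinery the 2 with the smallest p in each direction are named. Other members with pool values (Mis12, Mad2l1, Ube2c, Fzr1, Nuf2, Bub3) were chosen after their values were seen, as were Zwint, Plk4 and Cdca5 outside that comparison and the 4 other cytokinesis genes. The members and lists were chosen with earlier results of these data known. Alternatives were quantile normalization, median centring, cyclic loess, a mean level of at least 6, the mean of a gene's rows, a trended robust prior, only the groups compared, a spread for each group, the replicate block and each array left out; the fit without both antibody-alone arrays and the background of genes with a mean level of at least 8 were chosen after seeing the data. Promoter windows are RefSeq's, for GRCm38.p6; only bases before the start are shown.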

Additional observations from a re-analysis of the deposited data

Results flagged for a closer look

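The difference made by the antibody differed with and without Trim21 mRNA, by the interaction term of the limma fit, in 4 of the 50 members (8.0%), a larger share than the 3.46% of all genes called in that direction but a smaller one than the 14.1% of genes with a mean level of at least 8, as 47 members have. Kif20a had -2.34 ± 0.43 on the log2 scale (adjusted p 0.034), Cdc16 -1.88 ± 0.37 (0.04), Spc25 -1.34 ± 0.24 (0.031) and Pttg1 -1.09 ± 0.21 (0.039), from 2 pools a group. The direction was the same under quantile normalization, median centring and cyclic loess, where Kif20a ranged from -2.41 to -1.72, Cdc16 from -1.96 to -1.69, Spc25 from -1.40 to -0.90 and Pttg1 from -1.16 to -0.30. The call was lost in at least 1 of the 3 scalings for each, and in 5 or 6 of the 8 fits that left out 1 array. Groups of 2 pools allow no test of an outlying pool.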

How the results depend on the processing

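The count of members called moved by over 1.5 times under these alternatives. Full treatment minus Trim21 mRNA (34) had 21 after quantile normalization, with 23.4% of all genes called against 23.2% in the main fit. Full treatment minus antibody alone (28) had 16 after quantile normalization and 16 after cyclic loess. It had 10 with a spread for each group and 7 with only the groups compared. Of all genes 14.9% were called there in the main fit, and 16.2%, 14.5%, 6.52% and 4.59% in these fits, in the same order. Full treatment minus non-manipulated (41) had 26 and 27 after quantile normalization and cyclic loess. Of all genes 25.3% and 25.1% were then called, against 31.7% in the main fit. Antibody alone minus non-manipulated (18) had 10 with a spread for each group and 0 with only the groups compared (limma, 27 at an unadjusted p under 0.05). Of all genes 3.83% and 0.0% were then called, against 10.0% in the main fit. Trim21 mRNA minus non-manipulated (0) had 16 and 12 in these fits, with 12.2% and 8.21% of all genes, against 0.00326%. The interaction (4) had 2 after quantile normalization, 1 after cyclic loess, 1 with a trended robust prior and 2 with a spread for each group. Of all genes 4.08% were called in the main fit, and 4.68%, 3.87%, 2.86% and 3.49% in these. With 1 array left out at a time, the counts ranged from 21 to 42, 13 to 43, 29 to 47, 0 to 32 and 0 to 17 for full treatment minus Trim21 mRNA, minus antibody alone, minus non-manipulated, antibody alone minus non-manipulated and the interaction, and stayed 0 for Trim21 mRNA minus non-manipulated (2 to 22 at an unadjusted p under 0.05); the lone array left in a group is assumed to vary like the others.

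The replicate number shows no pairing of pools. As a replicate block it gave 33, 14, 0, 21, 39 and 1 members called for full treatment minus Trim21 mRNA, antibody alone minus non-manipulated, Trim21 mRNA minus non-manipulated, full treatment minus antibody alone, full treatment minus non-manipulated and the interaction. Of all genes 19.7%, 7.53%, 0.0%, 12.4%, 26.2% and 2.81% were called in that fit, in the same order. Without both antibody-alone arrays (chosen after seeing the data) the first count was 42. That fit keeps the means of the other groups, so every sub-complex median of full treatment minus Trim21 mRNA is the same by construction. These medians ran from -2.44 for the spindle motors to -0.68 for the checkpoint. The higher count says nothing about the size of the falls. Of the 42 members, 41 were called lower and 1 higher. Of all 30705 genes 6226 were called lower and 7967 higher in that fit. Together these are 46.2% of all genes, against 23.2% in the main fit.

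Of members called in at least 1 of the fits compared, the sign turned in full treatment minus Trim21 mRNA after quantile normalization for Ttk (0.80), Pttg1 (0.32) and Ube2c (0.16), and after cyclic loess for Ttk (0.80), Mad2l1 (0.56), Aurkc (0.46), Pttg1 (0.41) and Ube2c (0.19). In full treatment minus antibody alone it turned for Rad21 (0.63 and 0.73 after quantile normalization and cyclic loess) and Tpx2 (0.02, cyclic loess), and with antibody-alone pool 1 or pool 2 left out it was -1.63 or 1.80 for Bub3, -0.89 or 1.35 for Ncapd2, -1.58 or 1.02 for Bub1 and -2.10 or 1.01 for Nuf2. In full treatment minus non-manipulated it turned for Aurkc (0.32, 0.29), Ncapg (0.28, 0.21) and Pttg1 (0.11, 0.12) after quantile normalization and cyclic loess. The sign also turned in members called in neither fit: in 8 and 6 for full treatment minus Trim21 mRNA under these scalings (Mad2l1 after quantile normalization, Anapc1 and Anapc5 among them), in 3 and 3 for minus non-manipulated, and in 6 and 6 for minus antibody alone, and there in 2 and 4 without antibody-alone pool 1 and pool 2. The cause was not tested. Median centring, a mean level of at least 6 and the mean of a gene's rows kept all 6 counts within 1.5 times.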
